A study of Capra hircus with 13 samples.

Results

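The mRNAs described here are 17 goat transcripts that mature oocytes held in store, that were still present at 4 cells, and that were low at 8 cells. They were chosen from the values of 9 untreated libraries, 3 of MII oocytes (mature oocytes before fertilization), 3 of 4-cell and 3 of 8-cell stage embryos. A name was taken when it was listed once in the tables of all 3 stages and had at least 5 FPKM (fragments per kilobase of transcript and per fixed number of mapped fragments) in every MII library. Its mean in the 4-cell stage embryos had to be at least 0.7 of the MII mean, and every 8-cell library had to lie below 0.5 of the lowest MII and of the lowest 4-cell value. Names starting with ZNF, SLC, RPL, RPS, MRP, NDUF or KDM, and *UHRF2*, were left out. Of 18159 names listed once, 19 met the value limits, and 17 remained after *NDUFAF1* and *ZNF181* were left out by name. With the names above left out, 4134 had at least 5 FPKM in every MII library. These are called stored mRNAs here, and all later counts of them leave out the same names. Of the 17, 14 have a gene symbol and 3 only a LOC identifier.

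Because the stage values chose these mRNAs, their levels in MII oocytes and in untreated 4- and 8-cell stage embryos are a description and carry no test. The knockdown of *YTHDF2* was not used by the choice, and it was tested. For it, goat zygotes from in vitro fertilization (IVF) were injected at 8 h post-IVF with negative control (NC) siRNA or with a mixture of 2 siRNAs against *YTHDF2*, and collected as 8-cell stage embryos, 15 pooled embryos for each of 2 NC and 2 knockdown libraries. No strain, age or allele is given for the animals, and the untreated libraries were taken by the authors from earlier studies. The untreated and the injected tables were normalized apart, so values are set side by side across them with no test. An FPKM value is a share of the mRNA in a pool of whole embryos, so fewer expressing cells and less RNA per cell cannot be told apart. The libraries were made from polyadenylated RNA, so loss of an mRNA and loss of its poly(A) tail cannot be told apart either.

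A growing oocyte stores mRNAs and then stops transcription, so that the first cleavages run on maternal transcripts. These are removed in waves, some by factors already present in the oocyte and some only after the genome of the embryo has been switched on. YTHDF2 binds mRNAs that carry N6-methyladenosine (m6A) and brings the CCR4-NOT complex, which shortens the poly(A) tail and starts decay.

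The siRNAs are shown because they define the only tested comparison. The antisense strand of each guides the cleavage of *YTHDF2* mRNA, and its seed, bases 2 to 8 from the 5′ end, is in capitals. Each strand has 21 bases, of which 19 pair with the other strand, and the seeds of the antisense strands differ from each other.
s28148 sense: gggcugauauugcuagcaatt
s28148 antisense: uUGCUAGCaauaucagcccaa
s28147 sense: gcaugaauacuauagaccatt
s28147 antisense: uGGUCUAUaguauucaugcca

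The expression of *YTHDF2* was 112 and 159 FPKM in the NC libraries and 8.07 and 4.47 FPKM in the knockdown libraries. It was 21.5-fold lower in the knockdown embryos, with a log2 fold change of -4.25 (standard error 0.43, adjusted p = 0.000367 in limma), so the labels hold. In untreated 8-cell stage embryos it was 10.8, 16.7 and 12.5 FPKM, so the NC mean was 10.1 times the untreated mean and the knockdown mean was below it. Between replicates, log2 values correlated across genes at 0.921 to 0.979 among 8-cell, 0.979 to 0.986 among 4-cell and 0.971 to 0.987 among MII libraries, at 0.970 for NC and 0.973 for the knockdown. All 10 oocyte markers of the list were at 1 FPKM or more in MII oocytes with summed levels of 1538 to 2496 FPKM. Of the marker genes of cumulus and granulosa cells 7 of 10 were listed, of sperm 3 of 6 and of stromal and blood cells 6 of 7, and none of those listed was at 0 in every library. Their summed levels in MII oocytes were 11.6 to 30.7, 0.227 to 1.02 and 50.9 to 64.8 FPKM.

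**Figure D1:**
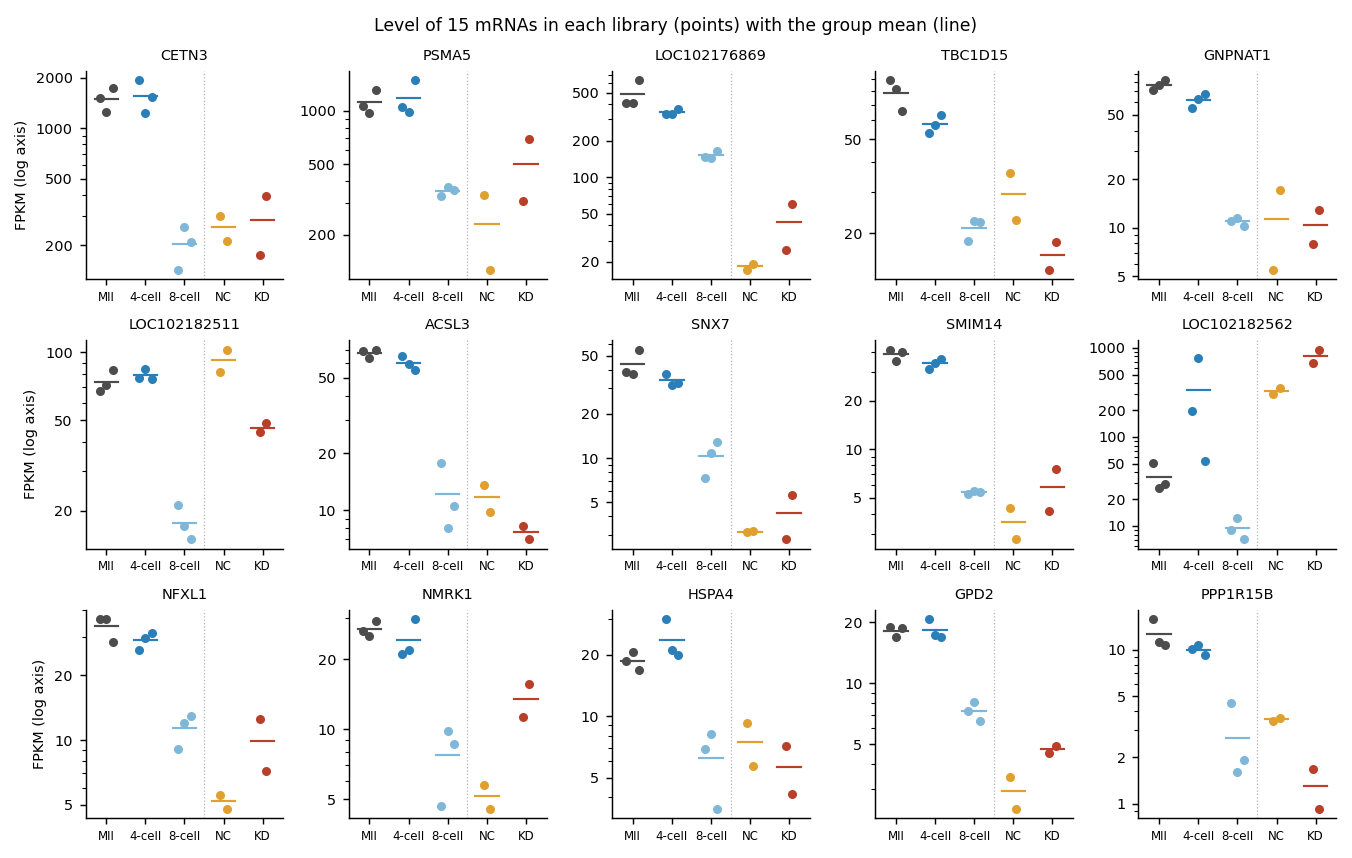
FPKM (log axis, a range of its own in each panel) of 15 of the 17 mRNAs in the 3 MII, 4-cell and 8-cell libraries and, right of the dotted line, in the 2 NC and 2 knockdown (KD) libraries at the 8-cell stage. Points are libraries and lines are group means. The 8-cell points lie below all MII and 4-cell points in every panel because the choice required it, and the NC and KD points leave this low range most visibly for *LOC102182562*.

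The 17 mRNAs differed widely in level in the oocyte. Their MII means ran from 12.6 FPKM (*PPP1R15B*) to 1498 FPKM (*CETN3*), with a median of 38.8 FPKM. In the untreated 8-cell stage embryos they held between 2.80% (*LOC102182562*) and 44.0% (*LOC102176869*) of their 4-cell mean, with a median of 26.3%, and their share of the MII mean was, for example, 13.6% for *CETN3* and 40.1% for *GPD2*. Ranked within each library among 18138 shared genes, their median percentile was 92.8 for MII oocytes, 91.7 for 4-cell and 78.8 for 8-cell stage embryos. At the 8-cell stage most of them were still among the better expressed genes of the embryo. The members' values rest on 134 to 73587 recovered fragments per untreated library, and counting alone gives a relative error of 8.64% at the lowest.

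"Kept" describes the step from the oocyte to the 4-cell stage only on average. The ratio of the 4-cell to the MII mean ran from 0.710 to 9.53, with a median of 0.878, and the 4-cell mean was above the MII mean in 7 members and below it in 10. In 9 members the 4-cell and MII libraries overlapped. In 6, among them *LOC102176869*, *TBC1D15*, *GNPNAT1*, *SNX7* and *PPP1R15B*, every 4-cell library was already below every MII library, and in 2, *LOC102182562* among them, every 4-cell library was above every MII library. For those last 2 the label of a transcript merely kept does not describe the values.

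**Figure D2:**
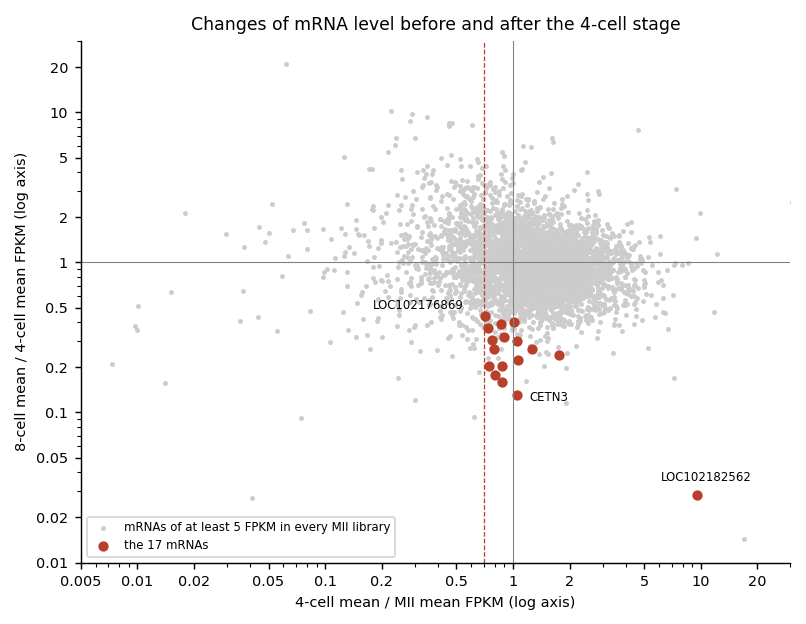
Ratio of the 4-cell to the MII mean (x, log axis) against the ratio of the 8-cell to the 4-cell mean (y, log axis) for the mRNAs with at least 5 FPKM in every MII library (grey, those at 0 at a stage or beyond the axes not drawn) and the 17 mRNAs (red). The dashed line is the ratio of 0.7 used by the choice. The 17 lie low by construction, with *LOC102182562* far to the right at 9.53 (3.51 without 4-cell replicate 2) and *CETN3* the lowest of those near 1.

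The most abundant members were *CETN3* and *PSMA5*. *CETN3* encodes centrin 3, a calcium-binding protein of the centrosome. Its expression was 1519.8, 1248 and 1726 FPKM in the MII oocytes, 1936, 1224 and 1537 FPKM in the 4-cell and 144, 256 and 210.4 FPKM in the 8-cell stage embryos. The MII and 4-cell libraries overlapped, and 13% of the 4-cell mean was left at the 8-cell stage. In the gene table used for names, *CETN3* overlaps the pseudogene *LOC102177521*, and since the strand of counting is not stated, reads of the overlapping genes cannot be told apart.

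*PSMA5* encodes an alpha subunit of the proteasome, the complex that degrades ubiquitin-tagged proteins. It had 1066, 972 and 1303 FPKM in the MII oocytes, 1053, 984 and 1484 FPKM in the 4-cell and 329, 371 and 358 FPKM in the 8-cell stage embryos. The 8-cell libraries were tightly grouped at 30.1% of the 4-cell mean. Other alpha subunit genes did not have this level: the MII means were 584 FPKM for *PSMA4*, 128 for *PSMA7*, 64.1 for *PSMA6*, 40.1 for *PSMA3*, 19.3 for *PSMA1*, 4.14 for *PSMA8* and 3.12 for *PSMA2*. The 8-cell to 4-cell ratio was 0.504 for *PSMA4*, 0.519 for *PSMA3*, 0.723 for *PSMA8*, 0.752 for *PSMA7* and 0.780 for *PSMA6*. It was 1.22 for *PSMA2* and 1.80 for *PSMA1*, against 0.301 for *PSMA5*. The mRNAs of these alpha subunits did not share 1 level or course.

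Of the 15 function lists used here, membrane traffic held the most members, 3 of the 200 genes of that list with at least 5 FPKM in every MII library, *SNX7* and *TBC1D15* among them. *TBC1D15*, which switches off the Rab GTPases of late endosomes, had 88.7, 81.1 and 65.6 FPKM in MII oocytes, 53.3, 57.6 and 63.3 FPKM at the 4-cell and 18.5, 22.6 and 22.4 FPKM at the 8-cell stage. *SNX7*, a sorting nexin that binds endosome membranes, had 38.9, 37.6 and 55.0 FPKM, then 37.5, 31.7 and 32.7 FPKM, then 7.33, 10.9 and 13 FPKM. In both every 4-cell library was below every MII library, with ratios of means of 0.740 and 0.775, and their lowest levels came at the 8-cell stage, where 36.5% and 30.6% of the 4-cell mean was left. *SNX7* overlaps *LOC102180818* in the gene table. *SMIM14*, a small membrane protein of the endoplasmic reticulum and in none of the lists, had 41.5, 35.0 and 39.9 FPKM, then 31.6, 34.3 and 36.2 FPKM, then 5.29, 5.50 and 5.46 FPKM. Its 8-cell libraries were the closest together of all members, with the highest 1.04 times the lowest.

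The members with metabolic roles were *ACSL3*, *GNPNAT1*, *NMRK1* and *GPD2*, a grouping made after the members were known. *ACSL3* activates long-chain fatty acids, also at lipid droplets, and had 69.7, 64.0 and 70.6 FPKM in MII oocytes, 65.5, 59.0 and 54.8 FPKM at the 4-cell and 17.8, 8.01 and 10.6 FPKM at the 8-cell stage. *GNPNAT1*, an enzyme on the path to UDP-GlcNAc, had 71.8, 76.2 and 82.1 FPKM, then 55.5, 62.6 and 67.3 FPKM, then 11.1, 11.5 and 10.3 FPKM. *NMRK1*, which phosphorylates nicotinamide riboside for NAD synthesis, had 26.3, 25.2 and 29.3 FPKM, then 21.1, 22 and 29.7 FPKM, then 4.69, 9.79 and 8.66 FPKM. For *GPD2*, the mitochondrial glycerol-3-phosphate dehydrogenase that passes electrons from the cytosol to the respiratory chain, the declines differed most from these. *GPD2* had 19.1, 16.9 and 18.8 FPKM in MII oocytes and 20.8, 17.4 and 16.9 FPKM at the 4-cell stage, a ratio of means of 1.01, and kept 39.8% of its 4-cell mean at the 8-cell stage (7.28, 8.12 and 6.54 FPKM). *GNPNAT1*, *ACSL3* and *NMRK1* kept 17.7%, 20.3% and 31.8%.

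*HSPA4* and *PPP1R15B* belong to protein folding and the stress response. *HSPA4*, a chaperone that acts as nucleotide exchange factor for heat shock proteins, had 18.6, 20.6 and 16.8 FPKM in MII oocytes, 29.8, 21.2 and 19.9 FPKM at the 4-cell and 6.93, 8.20 and 3.53 FPKM at the 8-cell stage. *PPP1R15B*, which directs protein phosphatase to a phosphorylated translation initiation factor and so keeps translation running, had 15.8, 11.2 and 10.7 FPKM, then 10.1, 10.6 and 9.24 FPKM, then 4.47, 1.60 and 1.92 FPKM. The 8-cell libraries of *PPP1R15B* were the widest apart of all members, 2.80-fold, with replicate 1 the highest.

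*NFXL1*, a zinc finger protein, had 36.5, 36.4 and 28.5 FPKM in MII oocytes, 26.2, 29.9 and 31.6 FPKM at the 4-cell and 9.10, 12 and 13 FPKM at the 8-cell stage. Its MII and 4-cell libraries overlapped, and 38.8% of the 4-cell mean was left at the 8-cell stage.

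Of the members without a symbol, *LOC102182562* had the most unusual course. It had 50.5, 27.0 and 29.5 FPKM in MII oocytes, 196, 768 and 53.9 FPKM at the 4-cell and 9.05, 12.3 and 7.13 FPKM at the 8-cell stage. The 4-cell libraries were 14.3-fold apart, the widest spread of any member at any stage, although all 3 were above all MII libraries. Without 4-cell replicate 2, left out after its value was seen, the ratio of the 4-cell to the MII mean was 3.51 and 7.60% of the 4-cell mean was left at the 8-cell stage. *LOC102182511* had 67.7, 71.6 and 83.3 FPKM, then 76.9, 84.1 and 76.6 FPKM, then 21.1, 17.1 and 15 FPKM. *LOC102176869*, listed as a pseudogene in the gene table and overlapping *GC* there, had 413, 407 and 634 FPKM, then 335, 335 and 364 FPKM, then 146, 144 and 165 FPKM. Reads of a pseudogene can belong to its parent or to the overlapping gene, so its values are uncertain.

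The limits of the choice were close for some members. For the level in the oocyte there was room, since the lowest MII value of *PPP1R15B* was 10.7 FPKM, and outside came *PPP2CB* with 2.97 and *MED23* with 2.63 FPKM. For the 4-cell to MII ratio, *LOC102176869* (0.710) and *TBC1D15* (0.740) were just inside, and *NSL1* (0.657) and *SDHAF2* (0.636) just outside. For the highest 8-cell over the lowest MII value, *HSPA4* (0.488) and *GPD2* (0.481) were inside and *HIKESHI* (0.506) and *MROH9* (0.523) outside. For the highest 8-cell over the lowest 4-cell value, *NFXL1* (0.495), *LOC102176869* (0.492) and *PPP1R15B* (0.484) were inside and *FH* (0.505) and *NUP160* (0.525) outside. Names outside the limits were sought only among those with a gene symbol. The set also depended on scale: after the untreated libraries were rescaled by median ratios 16 mRNAs met the same limits, and after rescaling to equal summed FPKM 18 did, and each time 6 were among the 17, with *CETN3*, *PSMA5*, *HSPA4*, *LOC102182511* and *LOC102182562* among these. Without 8-cell replicate 2, 40 mRNAs met the limits.

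By function, the 17 mRNAs were spread thinly. Of 15 function lists, 7 held a member and 8 held none, and 9 members were in no list. Besides the 3 in membrane traffic, *PSMA5* was 1 of 209 stored mRNAs of the ubiquitin system, *PPP1R15B* 1 of 142 of kinases, phosphatases and signalling, *ACSL3* 1 of 105 of mitochondria and metabolism and *HSPA4* 1 of 73 of cell death, autophagy and stress. *TBC1D15* was also counted in the list of the cytoskeleton, through a name shared with tubulin cofactors, which is not its role. No member was among the stored mRNAs of meiosis and the cell cycle (64), of mRNA storage and translation control (40), of mRNA clearance (41), of oocyte factors (26), of chromatin (84), of DNA repair and replication (93), of splicing (165) or of the translation machinery (67). Names left out by the choice are missing from both the members and these counts. The counts therefore cannot describe mRNAs with such names, for example those of ribosomal proteins.

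The next question was whether the low 8-cell level was also found in the NC embryos, which passed through culture and injection. In 12 of the 17 mRNAs both NC libraries were below 0.5 of the lowest MII and 4-cell value, where 17.5% of 4126 stored mRNAs met the same limit. Exceptions were *TBC1D15*, *LOC102182511*, *LOC102182562* and *HSPA4*, among others. The NC mean was between 0.121 and 34.3 times the untreated 8-cell mean, with a median of 1.04, lower in 8 members and higher in 9. In the knockdown embryos 12 members were below the same limit, where 6.81% of those mRNAs were, and 10 were below it in both injected groups. Exceptions in the knockdown were *PSMA5*, *NMRK1*, *LOC102182511* and *LOC102182562*, among others. For both injected groups the limit uses the MII and 4-cell values that chose the 17, while the 4126 had no 4-cell requirement. The gap between the 17 and the 4126 is therefore partly set by the choice and was not tested. The median percentile within a library was 74.9 in NC, close to the 78.8 of the untreated 8-cell stage embryos.

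The single mRNAs moved far more than that median. *LOC102182562*, with no 8-cell value above 12.3 FPKM in untreated embryos, had 301 and 352 FPKM in NC, 34.3 times the untreated mean and 96.1% of its 4-cell mean. That 4-cell mean rests on replicate 2, and without it NC was at 261% of the 4-cell mean. *LOC102182511* had 81.7 and 103 FPKM in NC, 5.2 times the untreated 8-cell mean and 116% of its 4-cell mean. In both, the low untreated 8-cell level was not found in the NC embryos. *LOC102176869* went the other way, with 17.3 and 19.4 FPKM in NC against 144 to 165 FPKM in untreated embryos. These gaps lie across tables that were normalized apart and embryos of other experiments, which cannot be told apart from the injection.

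**Figure D3:**
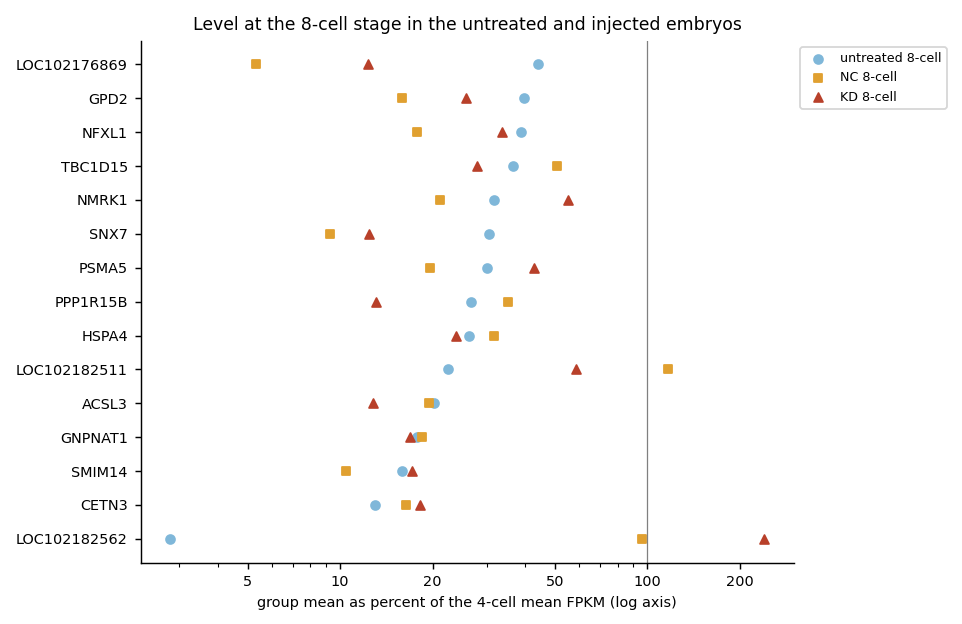
Group mean at the 8-cell stage as percent of the untreated 4-cell mean (log axis) for 15 of the 17 mRNAs, in untreated (circles, 3 libraries), NC (squares, 2 libraries) and knockdown (KD, triangles, 2 libraries) embryos. The vertical line marks the 4-cell mean, 100%. The NC squares of *LOC102182511* and *LOC102182562* lie at 116% and 96.1% (261% without 4-cell replicate 2), and the square of *LOC102176869* at 5.32%.

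The knockdown asked whether these mRNAs were higher without YTHDF2. All 17 had a mean of at least 1 FPKM in both injected groups. By the call used here, an unadjusted limma p under 0.05 together with more than a 2-fold difference, 4 mRNAs (*LOC102182562*, *NMRK1*, *PSMA5* and *LOC102176869*) were higher in the knockdown embryos, where 9.48% of 11004 tested genes were, and 1 was lower, where 15.3% were. With adjusted p values 1 was higher (*LOC102182562*) and 0 were lower, where 2.06% and 5.92% of genes were. The other 12 did not pass, 7 with a positive and 5 with a negative difference. The knockdown and NC libraries did not overlap in 11 mRNAs, 6 of them with the knockdown higher and 5 lower, where 30.3% and 30.7% of tested genes were apart in these directions. Only 2 libraries stand behind each group, and the labels do not say that they came from separate fertilizations, so a p measures the spread between these libraries.

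**Figure D4:**
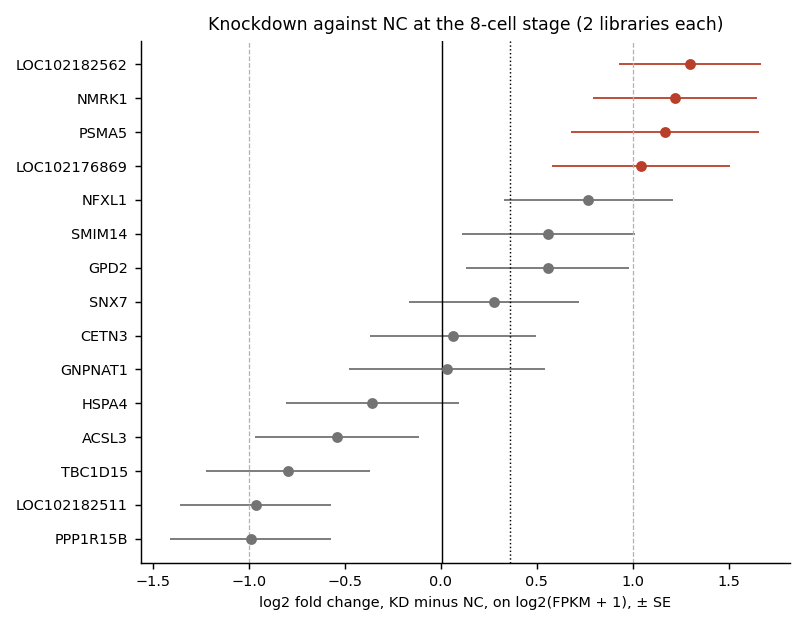
Log2 fold change of knockdown minus NC on log2(FPKM + 1) with its standard error from limma (2 libraries per group) for 15 of the 17 mRNAs, in red where higher at an unadjusted p under 0.05 and more than 2-fold. Dashed lines mark -1 and 1, and the dotted line the median of the stored mRNAs, 0.36. The values shown run from -0.99 (*PPP1R15B*) to 1.30 (*LOC102182562*).

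*LOC102182562* had 301 and 352 FPKM in NC and 675 and 952 FPKM in knockdown embryos. Both knockdown libraries were above both NC libraries, 2.49-fold by the means, with a log2 fold change of 1.30 (standard error 0.37, adjusted p = 0.0449 in limma). The call at the unadjusted p held in each of 11 alternatives. The call at the adjusted p held in 5 and was lost in 6. Among the latter was leaving out knockdown replicate 2 (log2 fold change 1.05), NC replicate 1 (1.19) or NC replicate 2 (1.41). The adjusted p in limma ranged from 0.0028 to 0.34. The lowest came from a fit that paired unlike-numbered libraries, chosen after seeing the data and counted among the 5.

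*NMRK1* had 5.73 and 4.55 FPKM in NC and 11.2 and 15.6 FPKM in knockdown embryos. The groups were apart, 2.61-fold, the largest ratio among the members, with a log2 fold change of 1.22 (standard error 0.43, adjusted p = 0.0848 in limma). The call was lost without knockdown replicate 2 (log2 fold change 1.002) and without NC replicate 2 (1.08). Its 4-cell level was 21.1 to 29.7 FPKM, but in tables normalized apart, so the distance to that level was not tested.

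*PSMA5* had 333 and 127 FPKM in NC and 312 and 693 FPKM in knockdown embryos. The groups overlapped, since 1 NC library was above 1 knockdown library, although the means differed 2.18-fold and the log2 fold change was 1.17 (standard error 0.49, adjusted p = 0.133 in limma). Without knockdown replicate 2 the log2 fold change was 0.59 and without NC replicate 2 it was 0.48, and neither passed. Without knockdown replicate 1 it was 1.74 and without NC replicate 1 it was 1.86, both passed, and the first also did at the adjusted p (0.00919 in limma). Other proteasome genes were singled out after their values were seen, and most of them passed in neither direction. Of 45 tested genes named PSMA to PSMG, *PSMA5* was the 1 higher and 13 were lower, 2.22% and 28.9% where 9.48% and 15.3% of all tested genes were, with a median log2 fold change of -0.45. With adjusted p values 0 were higher and 7 lower (15.6%), where 2.06% and 5.92% of all tested genes were. *PSMA1* had 462 and 484 FPKM in NC and 95.6 and 53.9 FPKM in knockdown embryos, a log2 fold change of -2.70 (limma adjusted p = 0.00306), and *PSMA2* had a log2 fold change of -2.77 (adjusted p = 0.00325).

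*LOC102176869* had 17.3 and 19.4 FPKM in NC and 24.9 and 60.2 FPKM in knockdown embryos. The groups were apart but the higher value rested on knockdown replicate 2, and the log2 fold change of 1.04 (standard error 0.46, adjusted p = 0.150 in limma) was 0.42 without that library and 1.67 without knockdown replicate 1 (limma adjusted p = 0.0167). It did not pass either without NC replicate 1 (0.97) or NC replicate 2 (1.12).

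*PPP1R15B* and *LOC102182511* were near the limit on the lower side. *PPP1R15B* had 3.46 and 3.59 FPKM in NC and 1.69 and 0.93 FPKM in knockdown embryos, a log2 fold change of -0.99 (standard error 0.42, adjusted p = 0.136 in limma). It passed with a pseudocount of 0.1 (log2 fold change -1.42), after median-ratio rescaling (-1.01) and without knockdown replicate 1 (-1.23). *LOC102182511* had 81.7 and 103 FPKM in NC and 44.3 and 48.8 FPKM in knockdown embryos, a log2 fold change of -0.96 (standard error 0.39, adjusted p = 0.126 in limma). It passed without knockdown replicate 2 (-1.03) and without NC replicate 1 (-1.13). In both mRNAs the knockdown libraries were below the NC libraries, and with all 4 libraries the change of less than 2-fold on the log2(FPKM + 1) scale kept them from the call.

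The other members described here did not pass at either limit. *TBC1D15* had 35.9 and 22.9 FPKM in NC and 14.1 and 18.4 FPKM in knockdown embryos (log2 fold change -0.80, limma adjusted p = 0.225), and *ACSL3* had 13.6 and 9.72 against 8.25 and 7.02 FPKM (-0.54, adjusted p = 0.406). *NFXL1* had 5.59 and 4.81 FPKM in NC against 12.5 and 7.20 FPKM (0.77, adjusted p = 0.255), and *GPD2* 3.44 and 2.40 against 4.54 and 4.90 FPKM (0.56, adjusted p = 0.389). In these 4 the groups did not overlap, but the difference did not pass. In *CETN3*, *GNPNAT1*, *SNX7*, *SMIM14* and *HSPA4* the groups overlapped, as in *PSMA5*. *CETN3* had 301 and 211 FPKM in NC and 176 and 394 FPKM in knockdown embryos (0.06, limma adjusted p = 0.935), and *GNPNAT1* 5.52 and 17.3 against 7.91 and 13 FPKM (0.03, adjusted p = 0.973). For both, the spread within the groups was larger than the difference of means (SE 0.43 and 0.51 on the log2 scale). *SNX7* had 3.11 and 3.19 against 2.80 and 5.64 FPKM (0.28), *SMIM14* 4.33 and 2.78 against 4.12 and 7.56 FPKM (0.56) and *HSPA4* 9.26 and 5.69 against 7.14 and 4.14 FPKM (-0.36), with adjusted p values of 0.699, 0.413 and 0.616.

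Set beside other stored mRNAs, the median log2 fold change of the 17 was 0.28 (quartiles -0.54 and 0.77), against 0.36 for the 4113 tested mRNAs with at least 5 FPKM in every MII library and 0.01 for all 11004 tested genes. The stored mRNAs and the groups by stage below leave out the same names as the choice, such as RPL, RPS and NDUF. All tested genes include them, so these backgrounds differ in make-up. The median of the 17 was -0.025 without knockdown replicate 2 and 0.60 without knockdown replicate 1. A positive difference was seen in 11 of 17 (64.7%), and in 66.7% of the stored mRNAs. Of the stored mRNAs 15.7% were called higher and 6.35% lower, where 4 of 17 and 1 of 17 are 23.5% and 5.88%. Of 2991 tested mRNAs kept to the 8-cell stage (4-cell and 8-cell means at least 0.7 of the MII mean), 15% were higher and 5.42% lower, with a median of 0.38. Of 81 tested mRNAs cleared before the 4-cell stage (every 4-cell and 8-cell library below 0.5 of the lowest MII value), 14.8% were higher and 14.8% lower, with a median of 0.03. The 17 members hold 1 mRNA for each 5.88 percentage points, so these shares are coarse and their differences were not tested.

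**Figure D5:**
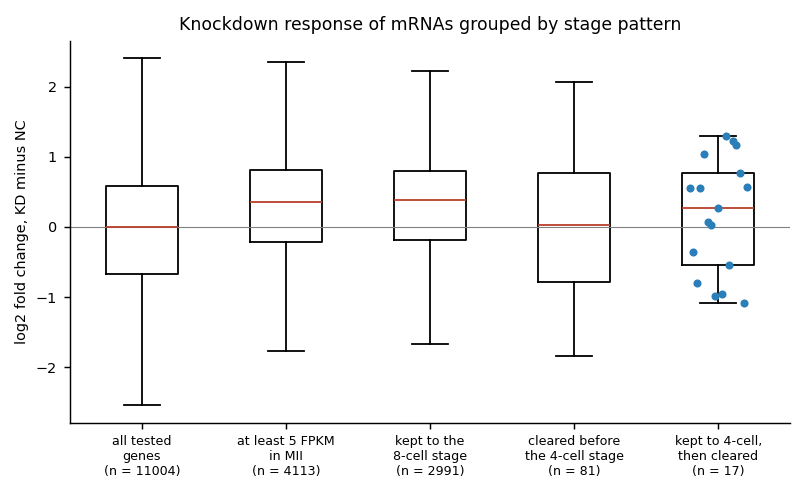
Log2 fold change of knockdown minus NC on log2(FPKM + 1) for all tested genes, the mRNAs with at least 5 FPKM in every MII library, those kept to the 8-cell stage, those cleared before the 4-cell stage and the 17 mRNAs (points). Boxes show the median (red) and quartiles, whiskers reach to the last value within 1.5 times the box height, and values beyond are not drawn. The median of the 17, 0.28, lies below the 0.36 of the stored mRNAs and above the 0.03 of those cleared early.

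Oocyte marker levels moved with the knockdown. The summed level of the 10 oocyte markers was 485 to 763 FPKM in NC and 984 to 1904 FPKM in knockdown embryos, against 2514 to 3060 FPKM in untreated 8-cell stage embryos, and 7 of the 10 were at 1 FPKM or more in NC and 10 in the knockdown. Of 34 tested genes of the list of oocyte factors 17 were called higher and 1 lower, 50% and 2.94% where 9.48% and 15.3% of all tested genes were, with a median log2 fold change of 0.98. With adjusted p values 2 were higher and 1 lower, 5.88% and 2.94% where 2.06% and 5.92% of all tested genes were. The summed cumulus and granulosa markers were 16.2 to 17.3 FPKM in NC and 33.6 to 40.2 in the knockdown, the stromal and blood markers 16.4 to 22.6 and 31.8 to 42.2, and the sperm markers 2.53 to 3.84 and 1.73 to 3.89 FPKM. The part of these shifts in the values of the 17 mRNAs was not tested.

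The genes of mRNA clearance, from a list of deadenylases, decapping factors, exosome subunits and adaptors, were mostly not called. Of 72 tested, 2 were higher and 12, *YTHDF2* among them, were lower, 2.78% and 16.7%, where 9.48% and 15.3% of all tested genes were. The median log2 fold change was -0.07, and with adjusted p values 2 were higher and 7 lower, 2.78% and 9.72% where 2.06% and 5.92% of all tested genes were. Named after their values were seen, *BTG3*, an antiproliferative protein that binds the CCR4-NOT deadenylase, had 238 and 234 FPKM in NC and 51.7 and 27.9 FPKM in knockdown embryos (log2 fold change -2.60, limma adjusted p = 0.00416), and the exosome subunit *EXOSC5* had 32.0 and 29.2 against 12.9 and 4.39 FPKM (-1.87, adjusted p = 0.0319). *CNOT10*, a subunit of CCR4-NOT, was higher, with 33.8 and 19.9 FPKM in NC and 84.2 and 68.8 FPKM in knockdown embryos (1.52, adjusted p = 0.0413), and so was *ZFP36L1*, which binds AU-rich mRNAs and promotes their decay (1.47, adjusted p = 0.0434). *BTG4*, the oocyte adaptor of that deadenylase, had 1830.1 and 1077 FPKM in NC and 2258 and 3335 FPKM in the knockdown and did not pass the fold limit (0.97, adjusted p = 0.112).

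In other lists that held a member, calls went in both directions, beside 9.48% higher and 15.3% lower over all tested genes. In membrane traffic 54 genes were higher and 42 lower of 442 tested (12.2% and 9.50%), but with adjusted p values 7 were higher and 18 lower (1.58% and 4.07%, where 2.06% and 5.92% of all tested genes were). In the ubiquitin system 43 and 47 of 376 were called (11.4% and 12.5%, adjusted 8 and 15), and in kinases, phosphatases and signalling 32 and 26 of 346 (9.25% and 7.51%, adjusted 3 and 7). Mitochondria and metabolism gave 21 and 48 of 225 (9.33% and 21.3%, adjusted 3 and 23), and cell death, autophagy and stress 12 and 29 of 172 (6.98% and 16.9%, adjusted 4 and 13). Of the members in membrane traffic, *TBC1D15* and *SNX7* did not pass.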

How the data were processed

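RNA was sequenced from 13 Smart-seq2 libraries of goat oocytes and embryos. The NC libraries, titled WT in the labels, carry NC siRNA as their treatment. The deposited tables hold FPKM values computed by the authors from reads aligned with HISAT2 and counted with HTSeq, per the labels; the strand of counting is not given in the sources used here. The injected tables give 2 decimals and the untreated tables more. Whole fragments (tolerance 0.02) could be recovered for the untreated libraries only, so the depth of the injected libraries is unknown. With limma 3.58.1 (lmFit, eBayes with trend) in R 4.3.3, log2(FPKM + 1) was fitted for the 11004 genes whose average across the 4 injected libraries reached 1 FPKM, two-sided, 2 NC against 2 knockdown libraries. A fold change on this scale understates the change of low genes. A gene was called at an unadjusted p under 0.05 and more than 2-fold, the rule of the study, and Benjamini-Hochberg adjusted p values over these genes stand beside it. The fit was tested on simulated data. Tables were read with Python 3.11.15, and gene names, biotypes and overlaps come from a RefSeq table of assembly ARS1.2, which matched all 17 members. The siRNA sequences were read from the study's list of oligonucleotides.

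The members, function lists and tests were chosen with earlier results of these data known. The rule for naming took members with a symbol by list, level, decline, knockdown call and nearness to a limit, and took in all 14 of them, of which 2 are counted but not reported here by name; the 3 LOC members were named beside these. Alternatives were other pseudocounts, filters, scalings and limits, the replicate number as a block, and leaving out each library. A crossed pairing of unlike replicate numbers was added after seeing the data.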

Additional observations from a re-analysis of the deposited data

How the results depend on the processing

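The number of mRNAs that met the limits was 17, and it was 7 with a 4-cell mean of at least 1.0 of the MII mean, 3 with 8-cell libraries below 0.25 of the lowest values, and 19 to 40 when each untreated library was left out in turn, 40 without 8-cell replicate 2. The count of members higher in the knockdown, 4, was 2 after median-ratio rescaling of the injected libraries, 2 with no filter on low values, 1 to 4 with each injected library left out, and 6 of 18 for the mRNAs chosen after equal summed FPKM. The count lower, 1, was 0 among the 12 members with a mean of at least 5 FPKM, since the member called lower is below that mean. It was 2 after median-ratio rescaling of the injected libraries, 2 with a pseudocount of 0.1, 2 for the mRNAs chosen after either rescaling of the untreated libraries, and 0 to 2 with a library left out. The median log2 fold change, 0.28, was 0.13 for the mRNAs chosen after median-ratio rescaling, 0.47 for those chosen after equal summed FPKM, and -0.025 (without knockdown replicate 2) to 0.60 (without knockdown replicate 1) with a library left out. Of the clearance genes 7 were lower with no filter, and 8 to 14 were lower and 2 to 7 higher with a library left out. Over all genes, 1043 higher and 1685 lower calls became 616 and 999 with no filter, and 545 and 1457 without NC replicate 2. With adjusted p values, 227 and 651 calls became 0 and 0 with no filter.

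With 1 library left out, the log2 fold change ranged from -0.52 to 0.64 for *CETN3*, from -0.71 to 0.78 for *GNPNAT1* and from -0.13 to 0.68 for *SNX7*. The sign turned for *CETN3* without knockdown replicate 2 (-0.52) or NC replicate 2 (-0.19), for *GNPNAT1* without knockdown replicate 2 (-0.29) or NC replicate 1 (-0.71), and for *SNX7* without knockdown replicate 2 (-0.13). The calls of *PSMA5* and *LOC102176869* were also lost after median-ratio rescaling (1.15 and 1.03) and with no filter, and that of *LOC102176869* with quantile normalization (1.09). *NFXL1* passed without knockdown replicate 2 (1.13). The cause was not tested in these cases. A library left out leaves 1 sample in its group, which is then assumed to vary like the other group.

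The labels do not say whether replicate numbers pair the samples. The deviations of same-numbered NC and knockdown libraries correlated at -0.15 over 11004 genes, which with 2 libraries per group cannot settle it. With the replicate block 1014 genes were higher and 1674 lower, and 78 and 383 with adjusted p values. In that fit 3 members were higher and 1 lower, since *PSMA5* lost its call (log2 fold change 1.17, limma adjusted p = 0.198), no other call at the unadjusted p was lost, and the adjusted p of *LOC102182562* was 0.0877, no longer under 0.05. With the crossed pairing, chosen after seeing the data, 1063 genes were higher and 1747 lower, and with adjusted p values 688 and 1378, where the unblocked fit gave 227 and 651. The depth of the injected libraries is unknown, so no limit for low values can be given there.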
